A study of Rattus norvegicus with 9 samples.

Results

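The count tables of rat striatum held 2 mitochondrial tRNA genes, a leucine tRNA and a glutamine tRNA. By the entry names the first lies on the plus strand and the second on the minus strand. They were chosen by name, as every entry placed on chromosome M, and were 2 of 410 tRNA entries and 2 of 1759 entries in all. The further tRNAs of the mitochondrial genome were not analysed here. The striatum, an input nucleus of the basal ganglia, was taken from rats of the species Rattus norvegicus, and the animals were 8 weeks old when grouped. The first group received methylcyclopentadienyl manganese tricarbonyl (MMT, an organic fuel additive) at 4 mg/kg, which supplies about 1 mg Mn/kg, dissolved in corn oil. The second received manganese chloride (MnCl2, weighed as the tetrahydrate) at 200 mg/kg in physiological saline at 10 ml/kg, and the control group received corn oil alone at 1 ml/kg. Every rat was dosed into the stomach once daily on 6 days of the week over 8 weeks. Each group had 3 libraries, 9 in all. The study used both sexes, and neither the sex behind a library nor whether it came from 1 rat or a pool was stated. The p-values below describe the spread between libraries, which may be technical. MnCl2 and its vehicle cannot be told apart in the comparison with control. Between MMT and MnCl2, the compound, the dose and the vehicle differed together and cannot be told apart.

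Mammalian mitochondrial DNA is copied into long RNAs from both strands, and tRNAs that lie between the coding stretches are cut out by RNase P at the 5′ end and by ELAC2 at the 3′ end. The terminal CCA is then added by TRNT1. The leucine tRNA with this anticodon reads UUA and UUG codons and is charged by LARS2. In human mitochondria its gene follows the large ribosomal RNA gene and holds the binding site of the termination factor MTERF1, and it is the gene most often mutated in MELAS, a mitochondrial encephalopathy. The glutamine tRNA is charged in mammalian mitochondria by an indirect route, in which EARS2 attaches glutamate and the GatCAB complex converts it to glutamine. Libraries were made from a gel band of 15 to 45 nucleotides, so the counts are of fragments shorter than a whole tRNA, and the tables do not say from which end.

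The sequences are printed to show how far both genes differ from nuclear tRNAs of the same anticodon. They are the deposited entries, 5′ to 3′ with the added CCA, and the anticodon is in capitals. Each mitochondrial tRNA is set beside the nuclear entry of the same anticodon that had the most counts.
Mitochondrial tRNA-Leu(TAA), plus strand: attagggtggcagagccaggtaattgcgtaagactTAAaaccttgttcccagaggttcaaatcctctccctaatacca
Nuclear tRNA-Leu(TAA), minus strand: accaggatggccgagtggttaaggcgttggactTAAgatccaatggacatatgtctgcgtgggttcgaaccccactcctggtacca
Mitochondrial tRNA-Gln(TTG), minus strand: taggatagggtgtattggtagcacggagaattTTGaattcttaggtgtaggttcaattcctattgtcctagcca
Nuclear tRNA-Gln(TTG), minus strand: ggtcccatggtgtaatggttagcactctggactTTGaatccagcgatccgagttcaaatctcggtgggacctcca
By the entry names, for which the submitters' processing notes name the build rn6, the mitochondrial leucine tRNA lies at chrM:2665-2739. The glutamine tRNA lies at chrM:3761-3831, with 1021 bases between them. The nuclear leucine entry shown lies at chr1:8655527-8655609 and the nuclear glutamine entry at chr10:83475942-83476013.

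In a global alignment the mitochondrial leucine tRNA was 61.1% identical to the nuclear leucine entry shown, and the mitochondrial glutamine tRNA was 60.0% identical to the nuclear glutamine entry shown. The mitochondrial pair were 57.5% identical to each other. Their GC content was 44.9% for leucine and 40.5% for glutamine, against a range of 42.7% to 65.7% and a median of 58.4% over the 408 nuclear tRNA entries. No nuclear entry was as low as the glutamine tRNA, and 2 were at or below the leucine tRNA. Neither sequence had a second copy among the entries, whereas 221 nuclear tRNA entries did. The rest of the genome was not searched, so nuclear copies of mitochondrial tRNA sequence outside the entries are not covered. The longest run shared with any other entry on the same strand was 13 bases for leucine and 11 bases for glutamine. A run of at least 12 bases linked the leucine tRNA to a nuclear serine entry with 1821 counts, and linked the glutamine tRNA on the opposite strand to a piRNA entry with 1 count. The mitochondrial tRNAs themselves had 63229 and 129969 counts over the 9 libraries.

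Mitochondrial tRNA-Gln(TTG) was the most abundant single tRNA entry in each of the 9 libraries, and tRNA-Leu(TAA) was among the 15 most abundant in each. Levels are counts per 1000000 counts, scaled between libraries by the trimmed mean of M-values (CPM). The order may depend on gene copies, since 221 of the 408 nuclear tRNA entries had an identical copy. How reads that match several entries were counted is not given. With identical sequences summed, the glutamine tRNA ran from rank 2 to 4 of 248 sequences and the leucine tRNA from 5 to 20. With all genes of an anticodon summed, the glutamine tRNA ran from 4 to 10 of 52 isotypes and the leucine tRNA from 9 to 29. Per base of the entry, glutamine was still first of 410 in every library and leucine ran from 2 to 15. Together the pair held 1.98% of all counts and 5.37% of tRNA counts over the 9 libraries.

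**Figure D1:**
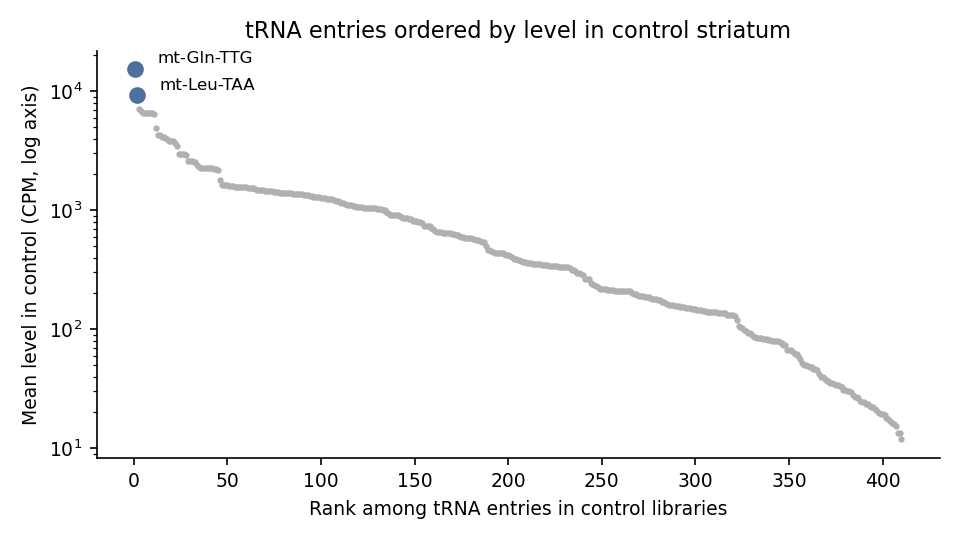
Mean level of each of the 410 tRNA entries in the 3 control libraries (CPM, log axis), ordered by level, with the mitochondrial tRNAs as large points. The glutamine tRNA averaged 15292 CPM and the leucine tRNA 9206 CPM, at the high end of the entries.

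The glutamine tRNA stood above the leucine tRNA in every library. Per base, the leucine count was 0.364, 0.296 and 0.418 of the glutamine count in MMT libraries, 0.350, 0.467 and 0.484 in MnCl2 libraries, and 0.538, 0.395 and 0.762 in control libraries (replicates 1 to 3). The ratio thus varied among controls more than among treated libraries, and control 2 lay within the range of the treated libraries.

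The leucine tRNA had a lower mean in both manganese groups than in control, with overlapping libraries. It was at 4542, 3819 and 6333 CPM in MMT libraries, 4171, 5594 and 6371 CPM in MnCl2 libraries, and 9526, 5668 and 12424 CPM in control libraries (replicates 1 to 3). The means were 4898 ± 1294 CPM in MMT, 5379 ± 1116 CPM in MnCl2 and 9206 ± 3390 CPM in control (SD, n = 3 each). Control 1 and control 3 were above all 6 treated libraries, while control 2 was not: MMT 3 and MnCl2 3 lay above it. The levels therefore overlapped between each treated group and control.

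The counts behind these levels ran from 3020 to 17136 per library, so that counting error was small beside the spread. The largest counting error in control was 1.31% of the value, whereas the coefficient of variation between controls was 36.8%. That variation had rank 13 among 125 tRNA entries above a mean of 1000 CPM, whose median was 11.1%. As a share of all counts, the leucine tRNA took 0.434% of MMT 1 (95% Wilson interval 0.423% to 0.446%) and 1.40% of control 3 (1.37% to 1.43%). The intervals of MMT 3 (0.578%, 0.566% to 0.590%) and control 2 (0.576%, 0.562% to 0.591%) overlapped. These intervals cover counting error only, and PCR copies may be included.

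The glutamine tRNA also had lower means in both manganese groups. It was at 11826, 12258 and 14384 CPM in MMT libraries, 11309, 11359 and 12490 CPM in MnCl2 libraries, and 16803, 13606 and 15468 CPM in control libraries (replicates 1 to 3). The means were 12823 ± 1369 CPM in MMT, 11719 ± 667 CPM in MnCl2 and 15292 ± 1605 CPM in control (SD, n = 3 each). All 3 MnCl2 libraries lay below all 3 controls. This held in that direction for 55 of 1113 entries tested (4.94%) and for 38 of 410 tRNA entries (9.27%). MMT 3 was above control 2, so MMT and control overlapped. All 3 MMT libraries lay below all 3 controls for 31 entries (2.79%) and for 19 tRNA entries (4.63%), neither mitochondrial tRNA among them. All 6 treated libraries lay below the controls for 13 entries (1.17%), again with neither. The coefficient of variation between controls was 10.5%, near the median of abundant tRNA entries given above.

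**Figure D2:**
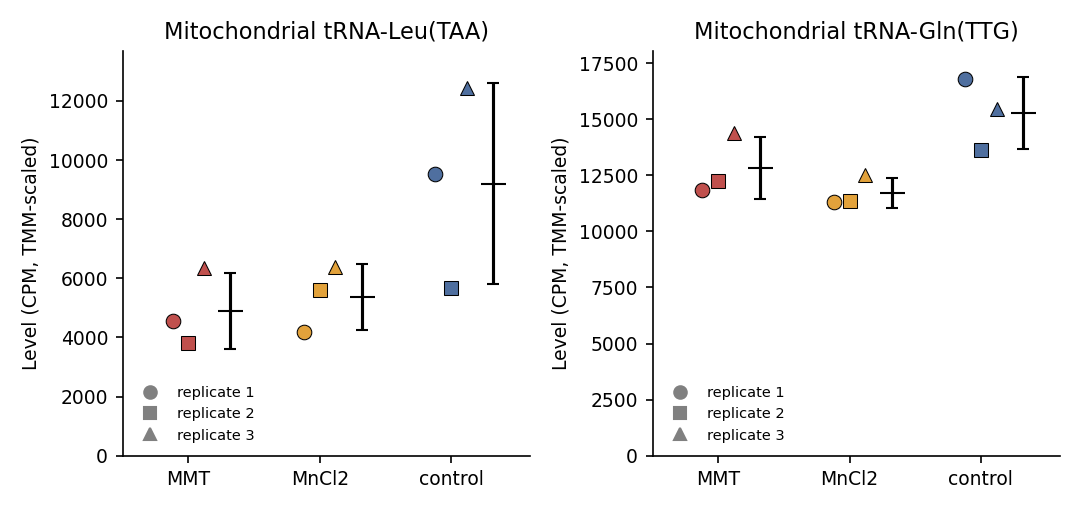
Level of each mitochondrial tRNA by library (points, shaped by replicate number), in CPM scaled by TMM, with the mean and SD of 3 libraries beside them. Control 1 and control 3 stand above every treated library for leucine, while control 2 lies below MMT 3 and MnCl2 3. For glutamine the 3 MnCl2 libraries stand below the controls, as for 4.94% of all entries tested and 9.27% of tRNA entries.

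The comparison of MMT with control asked whether the organic compound, in the same vehicle, came with a change in these tRNAs. The leucine tRNA had a log2 fold change of -0.91 (SE 0.29, 95% interval -1.55 to -0.27), a level 0.532 times that of control. Its unadjusted edgeR p was 0.00941, with rank 4 of 1113 entries, and the edgeR adjusted p was 1. The glutamine tRNA had a log2 fold change of -0.25 (SE 0.16, 95% interval -0.60 to 0.10; edgeR adjusted p = 1). None of the 1113 entries passed the adjusted threshold of 0.05 (0.0%). At an unadjusted p under 0.05 there were 22 lower entries (1.98%) and 2 higher ones (0.18%) by edgeR, and 23 in all by DESeq2, which also called 0. That total of 24 is not stable: it was 51 without control 3, 41 without control 1, 9 without control 2, 10 without MMT 1, 12 without MMT 2 and 59 with the log2 total as a covariate. The leucine tRNA was among the 22. Both mitochondrial tRNAs were below 0, as were 46.9% of all entries. Their median log2 fold change was -0.58, against 0.01 over all entries and -0.01 over the 410 tRNA entries, and 1 tRNA entry had a lower value than leucine.

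The leucine value rests in part on control 3. Without it the log2 fold change was -0.63 (edgeR adjusted p = 0.986), and without control 2 it was -1.16 (edgeR adjusted p = 0.998). Leaving out control 3 put the leucine tRNA outside the entries under an unadjusted 0.05.

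In MnCl2 libraries both mitochondrial tRNAs had a log2 fold change below 0 against control, as did 42.7% of all entries. The leucine tRNA had a log2 fold change of -0.77 (SE 0.29, 95% interval -1.41 to -0.14; edgeR adjusted p = 0.843), and no other of the 410 tRNA entries had a lower one. The glutamine tRNA had a log2 fold change of -0.38 (SE 0.16, 95% interval -0.74 to -0.03; edgeR adjusted p = 0.843), and 15 tRNA entries were lower, the leucine one among them. Neither passed. Across all entries 0 of 1113 passed (0.0%). At an unadjusted p under 0.05 there were 35 lower entries (3.14%), the mitochondrial pair included, and 16 higher ones (1.44%) by edgeR, and 69 in all by DESeq2, which called 0. That total of 51 became 157 without control 3, 30 without control 1, 29 without MnCl2 1 and 114 with the log2 total as a covariate. The pair's median was -0.58, against 0.06 over all entries and -0.08 over tRNA entries. The MMT and MnCl2 comparisons use the same controls and are not independent of each other. Without control 3 the leucine value was -0.56 (edgeR adjusted p = 0.421), and without MnCl2 1 it was -0.63 (edgeR adjusted p = 0.992). Without control 1 the glutamine value was -0.31, without MnCl2 1 or MnCl2 2 it was -0.36, and without MMT 1 it was -0.39. With tRNA entries alone the glutamine value was -0.31, and without the low-count filter it was -0.47. None of these glutamine values was under an unadjusted 0.05. With each other library left out, and under the other alternatives, the glutamine tRNA stayed under it.

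**Figure D3:**
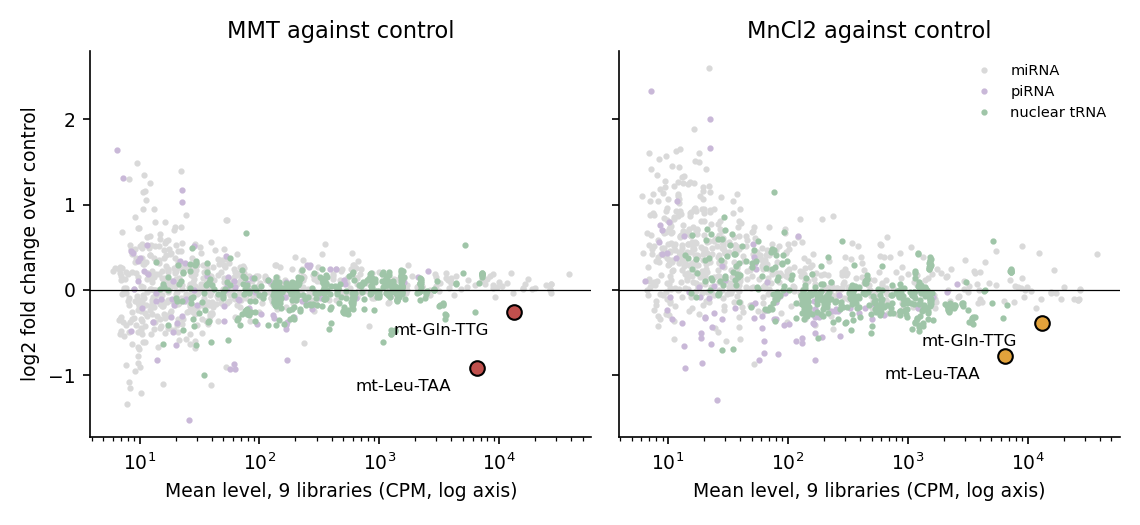
Log2 fold change over control against the mean level in 9 libraries (CPM, log axis) for the 1113 entries tested, in MMT (left) and MnCl2 (right), with the mitochondrial tRNAs as large points. The leucine tRNA lies at -0.91 and -0.77, and the glutamine tRNA at -0.25 and -0.38.

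Between MMT and MnCl2 the leucine tRNA had a log2 fold change of -0.13 (SE 0.29, 95% interval -0.77 to 0.50; edgeR adjusted p = 0.986). The glutamine tRNA had 0.13 (SE 0.16, 95% interval -0.22 to 0.48; edgeR adjusted p = 0.981). Neither difference exceeded the spread between libraries. No entry passed (0.0%). Unadjusted, edgeR gave 7 lower entries (0.629%) and 15 higher ones (1.35%) under 0.05, and DESeq2 gave 34 in all and called 0. With 1 library left out the total of 22 ran from 6 (without MMT 1) to 66 (without MMT 2). The mitochondrial pair were not among them.

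Summed over both genes, mitochondrial tRNAs had a lower mean share of all counts in both treated groups. The share was 1.57%, 1.76% and 1.89% in MMT libraries, 1.49%, 1.87% and 1.82% in MnCl2 libraries, and 2.35%, 1.96% and 3.15% in control libraries (replicates 1 to 3). All 6 treated libraries thus lay below all 3 controls on this scale. How many single entries did so as shares of all counts was not counted. On the TMM scale 13 of 1113 entries (1.17%) did, neither mitochondrial tRNA among them. The difference was -0.75 percentage points for MMT (exact two-sided permutation p = 0.1, the smallest that 3 against 3 allows) and -0.76 for MnCl2 (exact permutation p = 0.1). Adjusted over the 3 comparisons, each exact p was 0.15. Without control 3 the difference was -0.42 for MMT and -0.43 for MnCl2. With the leucine tRNA alone, the glutamine tRNA left out, it was -0.48 for MMT (exact permutation p = 0.2) and -0.41 for MnCl2 (exact permutation p = 0.3). MMT and MnCl2 differed by 0.01 percentage points (exact permutation p = 0.9, adjusted p = 0.9). On the TMM scale the summed levels overlapped, at 16077 to 20717 CPM in MMT and 19274 to 27892 CPM in control. In MnCl2 libraries the sum ran from 15480 to 18861 CPM, below every control. Among single entries 4.94% lay below every control in this way.

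Relative to tRNA counts alone the groups overlapped. Mitochondrial tRNAs were 4.29%, 4.24% and 5.49% of tRNA counts in MMT libraries, 4.31%, 4.67% and 5.24% in MnCl2 libraries, and 6.75%, 4.97% and 7.55% in control libraries (replicates 1 to 3). Control 2 lay among the treated libraries. The exact two-sided permutation p was 0.2 for MMT against control, 0.2 for MnCl2 against control and 0.8 for MMT against MnCl2, and 0.3, 0.3 and 0.8 after adjustment. The MnCl2 difference of -1.68 percentage points was -1.12 without control 3 and -0.98 without the glutamine tRNA.

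Strand here is that of the gene in the entry name, since the handling of strand in counting is not given. The glutamine tRNA, the minus-strand gene, supplied most counts of the 2 mitochondrial tRNA entries in every library. Its share was 72.3%, 76.2% and 69.4% in MMT libraries, 73.1%, 67.0% and 66.2% in MnCl2 libraries, and 63.8%, 70.6% and 55.5% in control libraries (replicates 1 to 3). The lowest shares were those of control 3 and control 1, and control 2 lay within the treated range. The mean was 72.6% ± 3.42 in MMT, 68.8% ± 3.74 in MnCl2 and 63.3% ± 7.58 in control (SD, n = 3 each). The exact two-sided permutation p was 0.2 for MMT against control, 0.4 for MnCl2 against control and 0.3 for MMT against MnCl2, and 0.4 for each after adjustment. Without control 3 the difference was 5.44 percentage points for MMT, in place of 9.35, and 1.55 for MnCl2, in place of 5.47. The MnCl2 difference was 3.32 without MnCl2 1 and 9.12 without control 2. The difference of 3.88 between MMT and MnCl2 was 2.08 without MMT 2 and 6.03 without MnCl2 1. With 1 tRNA per strand, strand and gene cannot be told apart.

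The leucine and glutamine tRNAs varied together over the libraries, with a Pearson correlation of log2 CPM of 0.83 over 9 libraries, and 0.77 for deviations from the group means. Both values come from the same libraries and scaling factors and are given as a description. The entry most like the leucine tRNA was the miRNA miR-187-3p, at 0.929, and the next was the glutamine tRNA. For glutamine the closest was a nuclear arginine tRNA with anticodon ACG, at 0.868, followed by pir-64451, at 0.836. These neighbours were sought among all 1112 other entries after the values were seen. The miRNA averaged 712 ± 69.7 CPM in MMT, 785 ± 68.5 CPM in MnCl2 and 952 ± 91.3 CPM in control (SD, n = 3 each).

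**Figure D4:**
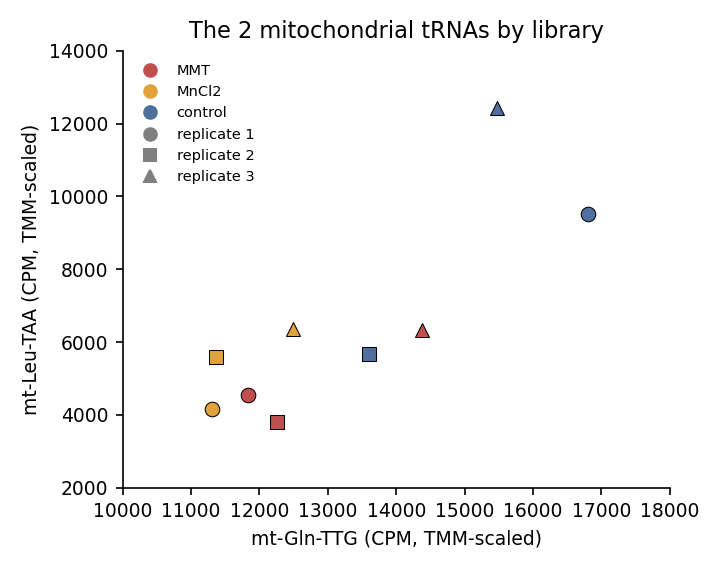
Level of the leucine tRNA (y axis) against that of the glutamine tRNA (x axis) in each library, both in CPM scaled by TMM, coloured by group and shaped by replicate number. Control 1 and control 3 lie highest on the y axis, and the highest of the other 7 libraries is at 6371 CPM of leucine tRNA.

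Nuclear tRNAs of the same amino acids, which serve translation in the cytosol, are described next as a group for each. The 9 nuclear leucine entries had a median log2 fold change of 0.10 in MMT against control, with 4 of 9 below 0 and 0 at an unadjusted p under 0.05. In MnCl2 their median was -0.15, with 8 of 9 below 0 and again 0 at that level. Their summed level was 14861 ± 654 CPM in MMT, 12568 ± 1129 CPM in MnCl2 and 13694 ± 626 CPM in control (SD, n = 3 each). The 15 nuclear glutamine entries were all below 0 in both comparisons, with medians of -0.29 in MMT and -0.37 in MnCl2. Of these, 6 had an unadjusted p under 0.05 in MMT and 5 in MnCl2, all of them with anticodon CTG, and none passed after adjustment. Over the 410 tRNA entries, 215 were below 0 in MMT and 272 in MnCl2, and 13 and 23 of them were lower at that unadjusted level. Over all 1113 entries the shares at that level were the 1.98% and 3.14% given above. The summed level of the 15 nuclear glutamine entries was 22278 ± 2114 CPM in MMT, 21190 ± 2929 CPM in MnCl2 and 27146 ± 4739 CPM in control (SD, n = 3 each). Nuclear copies share sequence, so their counts are not independent.

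Each mitochondrial tRNA was then set against the nuclear tRNAs of the same amino acid. The ratio of mitochondrial to nuclear leucine tRNA counts was 0.299, 0.271 and 0.414 in MMT libraries, 0.359, 0.457 and 0.461 in MnCl2 libraries, and 0.664, 0.432 and 0.913 in control libraries (replicates 1 to 3). All 3 MMT libraries lay below all 3 controls, and the MnCl2 libraries overlapped with control 2. Among single entries, 2.79% of all and 4.63% of tRNA entries had MMT below control in this way. For other ratios this was not counted. On the log2 scale the difference was -0.99 for MMT (exact two-sided permutation p = 0.1, the smallest possible) and -0.60 for MnCl2 (exact permutation p = 0.3), and each was 0.3 after adjustment over 3 comparisons. For MMT against MnCl2 it was -0.39 (exact permutation p = 0.2, adjusted p = 0.3). Without control 3 the MMT difference was -0.73 and that of MnCl2 was -0.34. With all nuclear tRNAs as the denominator, the value for MMT against control was -0.89 (exact permutation p = 0.2, in place of 0.1). With that denominator it was -0.67 for MnCl2 against control (exact permutation p = 0.3) and -0.22 for MMT against MnCl2 (exact permutation p = 0.5).

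The ratio of mitochondrial to nuclear glutamine tRNA counts was 0.510, 0.617 and 0.605 in MMT libraries, 0.460, 0.582 and 0.641 in MnCl2 libraries, and 0.561, 0.457 and 0.714 in control libraries (replicates 1 to 3). The groups overlapped throughout. The log2 difference was 0.02 for MMT against control (exact permutation p = 1), -0.03 for MnCl2 against control (exact permutation p = 1) and 0.05 for MMT against MnCl2 (exact permutation p = 0.7), and each was 1 after adjustment. These values depend on the denominator. With all nuclear tRNAs in place of the glutamine ones, the difference was -0.27 for MMT against control (exact permutation p = 0.2) and -0.32 for MnCl2 against control (exact permutation p = 0.1, the smallest possible). These 2 ratios were computed after the values were seen.

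**Figure D5:**
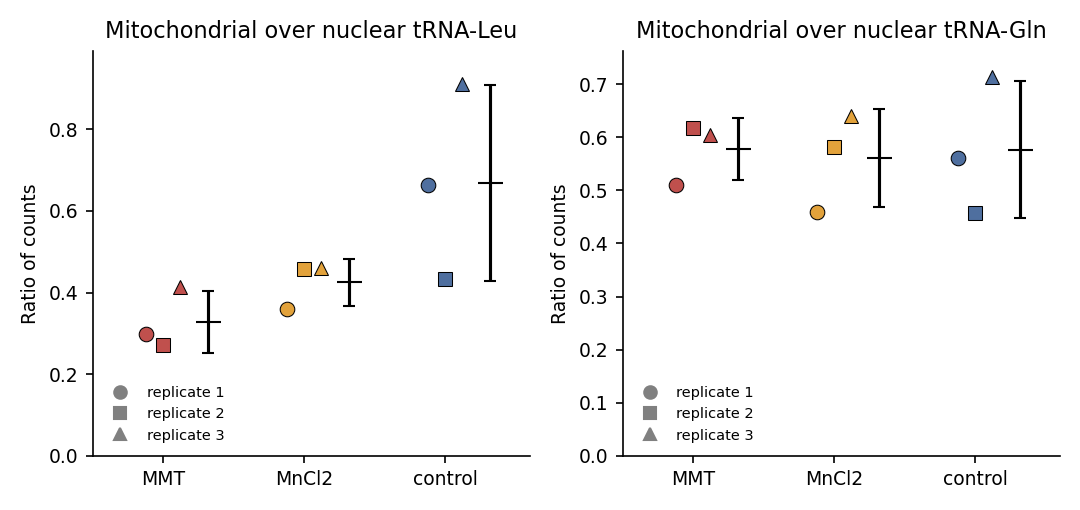
Ratio of mitochondrial to nuclear tRNA counts of the same amino acid by library (points, shaped by replicate number), with the mean and SD of 3 libraries. The leucine ratio averaged 0.328 in MMT, 0.425 in MnCl2 and 0.669 in control, and the glutamine ratio 0.577, 0.561 and 0.577.

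Of 12 miRNAs listed as found at or acting on mitochondria, 11 were tested. Their median log2 fold change was 0.22 in MMT and 0.20 in MnCl2 against control, and none passed after adjustment. Over all entries the medians were 0.01 and 0.06. At an unadjusted p under 0.05 there were 0 in MMT and 1 in MnCl2, the muscle miRNA miR-1-3p (29.4 ± 27.9 CPM in MnCl2, 8.15 ± 2.27 CPM in control, SD, n = 3; edgeR adjusted p = 0.843). The brain-enriched miR-338-3p, which targets nuclear-encoded cytochrome oxidase mRNA in axons, was at 3719 ± 308 CPM in MMT, 3789 ± 684 CPM in MnCl2 and 3242 ± 810 CPM in control (SD, n = 3 each). The hypoxia miRNA miR-210-3p, which targets the iron-sulfur scaffold ISCU, was at 39.2 ± 3.11 CPM in MMT, 38.2 ± 11.2 CPM in MnCl2 and 32.4 ± 14.8 CPM in control (SD, n = 3 each). These 2 were singled out for their roles, and miR-338-3p is also on the oligodendrocyte marker list used below.

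The libraries held 583045 to 2012769 counts, and control 3 and control 1 were the shallowest and the deepest. Against the log2 total, Pearson's r of the mitochondrial tRNA share was -0.177 (exact permutation p = 0.648, n = 9) and Spearman's rho was 0.15 (exact permutation p = 0.708). For the minus-strand share r was 0.0737 (exact permutation p = 0.851, n = 9) and rho was -0.133 (exact permutation p = 0.744). Adjusted over both relations, the exact permutation p was 0.851 for each r and 0.744 for each rho. Leaving out control 1 and control 3, whose totals lay farthest out, gave r of 0.314 for the first (exact permutation p = 0.493, n = 7) and -0.417 for the second (exact permutation p = 0.361, n = 7). Both coefficients changed sign without them. For deviations from the group means r was -0.379 for the first and 0.072 for the second, with the signs of the values over 9 libraries. All 6 neuronal miRNA markers were detected in every library, with summed levels of 53540 to 69490 CPM in MMT, 54680 to 68000 CPM in MnCl2 and 51640 to 70860 CPM in control. Marker sums of the other cell types overlapped between each treated group and control. Some reached higher in MnCl2. For endothelium and smooth muscle the sum ran from 16120 to 18970 CPM in MMT, 15790 to 30750 CPM in MnCl2 and 14600 to 20570 CPM in control. For blood these ranges were 81.8 to 87.8, 72.3 to 185.1 and 68.4 to 115.5 CPM, and for muscle 65.3 to 163.1, 98.1 to 210.1 and 76.7 to 124.6 CPM. In MnCl2, 1 blood marker was at 0 in at least 1 library. The choroid plexus sum ran from 359 to 2623 CPM in MMT, 320 to 1596 CPM in MnCl2 and 438 to 1408 CPM in control, and the part of such cells in the levels above was not tested. In bulk tissue, fewer cells with a given RNA and less of it per cell cannot be told apart.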

How the data were processed

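Small RNAs were measured in 9 striatum libraries, with groups and replicate numbers taken from the titles. TRIzol extraction, a gel band of 15 to 45 nucleotides and adapters from the QIAseq miRNA kit are given per the labels' protocols. Trimmomatic and the build rn6 are named per the submitters' processing notes. The aligner is not given in the sources used here, nor are the placement of reads that match several entries and the handling of strand and molecular identifiers. The authors deposited raw counts per entry, with no normalization.

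The quasi-likelihood test of edgeR 4.0.16 (R 4.3.3) was run on these counts after TMM scaling (filterByExpr, robust weights, all 9 libraries in 1 fit, two-sided, Benjamini-Hochberg over the 1113 entries that passed, threshold 0.05). Both mitochondrial tRNAs passed the filter. Scripts were tested on simulated data. For shares and ratios, all 20 arrangements of 3 against 3 libraries gave an exact two-sided permutation p. Sequences were aligned with Biopython 1.88, and other steps used Python 3.11.15 with scipy 1.17.1, numpy 2.4.6, pandas 2.3.3 and matplotlib 3.10.9. Alternatives were DESeq2 1.42.0, other scalings and filters, the replicate block, the total as covariate, and each library left out. The mitochondrial to nuclear ratios and the most similar entries were added after the values were seen. The genes, lists and tests were chosen with earlier results of these data known. The rule for named genes listed both mitochondrial tRNAs in full. The labels do not state that replicate numbers pair the libraries, and the main fit did not pair them.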

Additional observations from a re-analysis of the deposited data

How the results depend on the processing

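With each of the 9 libraries left out, and under 11 other alternatives, neither mitochondrial tRNA passed in any comparison, and both kept their negative sign against control. The leucine log2 fold change ran from -1.16 to -0.63 in MMT and from -1.07 to -0.56 in MnCl2 with 1 library left out, and the glutamine value from -0.35 to -0.17 and from -0.52 to -0.31. A filter of 10 CPM in 3 libraries kept the same number of entries, 1113, with the same values. Without the low-count filter 1 entry, miR-200a-3p, was called in MnCl2 against control; the cause was not tested. Values near 0 changed sign. The leucine value for MMT against MnCl2 ran from -0.364 to 0.0865 with 1 library left out, and was 0.00114 without MnCl2 3. The share of all counts for that comparison ran from -0.109 to 0.0965 percentage points, and was -0.0685 without the glutamine tRNA, and the share of tRNA counts ran from -0.475 to 0.182. The log2 glutamine ratio ran from -0.137 to 0.185 (MMT against control; -0.269 with all nuclear tRNAs as the denominator), from -0.186 to 0.136 (MnCl2 against control; -0.321 with that denominator) and from -0.0867 to 0.152 (MMT against MnCl2). The correlations with the total turned to 0.314 and -0.417 without control 1 and control 3; the cause was not tested. Counts of entries at an unadjusted p under 0.05 moved most. With 1 library left out they ran from 9 to 51 in MMT against control, from 29 to 157 in MnCl2 against control and from 6 to 66 in MMT against MnCl2. Under the other alternatives they ran from 17 to 59, from 19 to 114 and from 8 to 57. The number of entries tested differed too, from 410 with tRNA entries alone to 1759 without the low-count filter. The 19 and the 8 came from the tRNA entries alone. The differences in the share of all counts from control ran from -1.01 to -0.419 in MMT and from -1.02 to -0.430 in MnCl2 with 1 library left out, lowest in size without control 3. Leaving out both tRNAs, or 1 of them for the strand share, leaves no value.

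Same-numbered libraries had correlations of -0.666 to 0.493 over 9 pairs, which does not settle whether the numbers pair them. With a replicate block the leucine value was -0.89 in MMT and -0.72 in MnCl2 against control, and 0 entries were called in any comparison. Its unadjusted edgeR p was 0.00265 in MMT and 0.00912 in MnCl2 with the block, against 0.00941 and 0.0214 in the main fit.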
